A study of Mus musculus with 6 samples.

Results

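The solute carriers form the largest group of membrane transporter genes in mammals, and the genes described here were taken from it by symbol. Mouse symbols of the form Slc, a family number, the letter a and a member number were matched in the array annotation, with Slc38a10, Slc37a4, Slc2a2, Slc10a1, Slc27a5 and Slc40a1 set aside by the same rule. Of 327 matching symbols, 321 remained, and 174 of them had an intensity above 129 on at least 1 of the 6 arrays. The array carried 19057 named genes in all, of which 10140 reached that level. Of the 174 genes, 94 were above it on all 6 arrays and 38 on 1 array. The members just inside the level were Slc9a8 at 129.5, Slc25a40 at 129.5 and Slc22a8 at 129.8, and the genes just outside were Slc25a29 at 128.8, Slc44a4 at 128.9 and Slc43a2 at 129.0. Each value is the highest intensity of the gene's brightest probe. The rule took in 4 genes that are named after a carrier and transport nothing themselves, Slc4a1ap, Slc7a6os, Slc9a3r1 and Slc9a3r2. It missed carriers with another letter in the symbol, such as those of the Slc35b to Slc35e branches.

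Solute carriers move amino acids, sugars, ions, metals, vitamins and metabolites across membranes by facilitated diffusion or by coupling to an ion gradient. In hepatocytes they take up nutrients and bile constituents from blood, shuttle metabolites across the inner mitochondrial membrane and supply the lumen of the ER and Golgi with zinc and activated sugars. Xbp1s, the spliced form of Xbp1, is a transcription factor of the unfolded protein response that is known for inducing genes of the secretory pathway.

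The study measured liver RNA on 6 Illumina bead arrays, 1 per group, each hybridised with a pool. All mice were of the FVB strain and 10 weeks old, and the tissue is labelled as liver slice. At 24 h of Dox200 chow (Dox, doxycycline) there was a LIXs pool and a wild-type (WT) pool, and at 48 h another of each. These 4 pools came from mice fasted for 6 h. A further WT pool was fasted for 24 h and another was refed for 2 h, neither with Dox in its labels. LIXs mice carry TRE-Xbp1s, an Xbp1s transgene under a promoter that Dox switches on, and the WT mice on Dox received the same chow. The sources used here give neither the cells in which the transgene was driven nor the number of animals per pool.

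Xbp1 itself did not separate the genotypes, so the arrays are named by their labels throughout. Its intensity was 4537 and 4259 on the LIXs-labelled and WT-labelled arrays at 24 h, 4350 and 5210 at 48 h, 5120 on the refed and 4457 on the fasted array. The averaged log2 difference was -0.086 ± 0.22 (SE, limma adjusted p = 0.837). Among the hepatocyte markers, Apoa1, Ttr, Fga and Serpina1c were bright on every array, the probe of Alb read between 130.2 and 162.8, and Tat stayed below the detection level. The fasted array stood apart from the others: its log2 values correlated with theirs at 0.916 to 0.936 across genes, against 0.959 to 0.987 among the other 5. The LIXs-labelled array at 24 h carried a pancreatic acinar signal. The summed intensity of 17 acinar marker genes was 16886 there and between 2870 and 4148 on the other arrays, with 17 of 17 above the detection level there and 9 to 16 elsewhere. Of these 17 genes, 7 were called higher and 0 lower in the averaged comparison below (limma adjusted p at most 0.05). Their median log2 difference was 3.05 at 24 h and 0.27 at 48 h. The islet gene Ins2 read 474 on that array and 118 to 194 elsewhere, and Gcg read 135 and 100 to 121. The part of this signal in the differences at 24 h and in the averaged differences was not tested. In liver RNA, fewer cells of a type and less RNA per cell cannot be told apart.

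The promoters of 4 zinc transporters of the ER and Golgi with lower signal under the LIXs label at 24 h and at 48 h are printed as examples. Slc30a6 and Slc39a9, also zinc transporters located there, were lower at both times too and are left out. The 4 promoters are therefore a chosen part of such genes. Each is the 250 bases before the RefSeq start site on GRCm38.p6, written 5′ to 3′ on the gene's own strand, which is the minus strand for each. Capitals mark matches to CCACG, letters known from the Xbp1s-bound ER stress elements, or to GACGTGG, a longer element of the same kind. Slc30a7 lies at chr3:116007407-116007656, Slc30a5 at chr13:100833428-100833677, Slc39a13 at chr2:91070316-91070565 and Slc39a7 at chr17:34031691-34031940.
Slc30a7: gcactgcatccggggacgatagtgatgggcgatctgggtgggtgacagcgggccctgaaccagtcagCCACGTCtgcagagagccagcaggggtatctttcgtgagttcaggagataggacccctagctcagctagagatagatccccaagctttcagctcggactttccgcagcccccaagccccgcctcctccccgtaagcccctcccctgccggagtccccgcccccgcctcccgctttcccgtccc
Slc30a5: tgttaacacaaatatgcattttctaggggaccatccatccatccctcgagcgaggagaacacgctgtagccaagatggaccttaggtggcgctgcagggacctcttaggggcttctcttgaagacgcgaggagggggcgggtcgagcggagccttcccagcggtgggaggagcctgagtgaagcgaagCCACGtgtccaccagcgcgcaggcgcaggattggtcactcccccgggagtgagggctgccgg
Slc39a13: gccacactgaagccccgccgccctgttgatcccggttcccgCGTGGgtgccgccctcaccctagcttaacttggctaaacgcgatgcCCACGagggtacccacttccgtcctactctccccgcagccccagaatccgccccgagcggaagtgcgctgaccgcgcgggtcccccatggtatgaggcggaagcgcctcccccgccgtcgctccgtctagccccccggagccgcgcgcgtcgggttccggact
Slc39a7: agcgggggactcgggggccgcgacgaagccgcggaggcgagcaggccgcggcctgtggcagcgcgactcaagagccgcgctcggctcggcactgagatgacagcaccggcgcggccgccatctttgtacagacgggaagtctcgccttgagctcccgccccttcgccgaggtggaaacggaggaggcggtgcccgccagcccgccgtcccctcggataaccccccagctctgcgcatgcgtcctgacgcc
In Slc30a7 the capitals begin at -183 from the start site, where CCACG on the gene's strand overlaps GACGTGG on the other. Slc30a5 has CCACG at -62. Slc39a13 has it on the other strand at -209 and on its own at -163. Slc39a7 had 0 matches to these letters in this window. On either strand, CCACG stood in the window of 62 of the 136 members with a RefSeq promoter (45.6%) and of 31.0% of all 27025 genes with one. Counted by promoter, the shares were 38.7% of 186 and 28.3% of 32851. The members had passed a detection level, and the full set of genes had not. Among the members called in the comparison below, CCACG stood in 2 of 7 lower ones with a promoter (28.6%) and 2 of 4 higher ones. GACGTGG stood in 4 of 136 (2.94%) against 2.23%, and every match to it also holds CCACG on the opposite strand. TGATGCA, the start of the element that ATF4 binds, stood in 5 of 136 (3.68%) against 3.10%. A match describes letters and not binding.

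The first comparison was between LIXs-labelled and WT-labelled arrays, averaged over 24 h and 48 h of Dox, the question the series was built for. The members higher on the LIXs-labelled arrays were Slc6a9 (glycine), Slc17a8 (glutamate), Slc19a1 (folate), Slc17a2 (phosphate) and Slc38a3 (glutamine). Those lower were Slc7a7, Slc17a9, Slc30a7, Slc16a6, Slc38a5, Slc4a1ap, Slc39a7, Slc39a11, Slc45a4 and Slc37a1, of which Slc30a7, Slc39a7 and Slc39a11 carry zinc. Of 128 members detected on at least 2 of the 4 Dox arrays, 15 passed limma's test with adjusted p at most 0.05, 5 higher and 10 lower, which is 11.7% of those tested. Over all 7698 genes tested the share called was 8.59%, with 4.2% higher and 4.39% lower. The other 46 members were too dim to be tested, and 7 of the 128 were at or below the detection level on both arrays of 1 genotype label (4 LIXs, 3 WT), so that they entered only through the label where they were higher. Of the members called, Slc37a1 is such a gene. The median difference of the tested members was 0.22 on the log2 scale, with 79 above 0 and 49 below, against a median of 0.0084 over all genes tested. In 104 of the 128 (81.3%) the difference had the same sign at both times, against 70.2% of all genes.

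**Figure D1:**
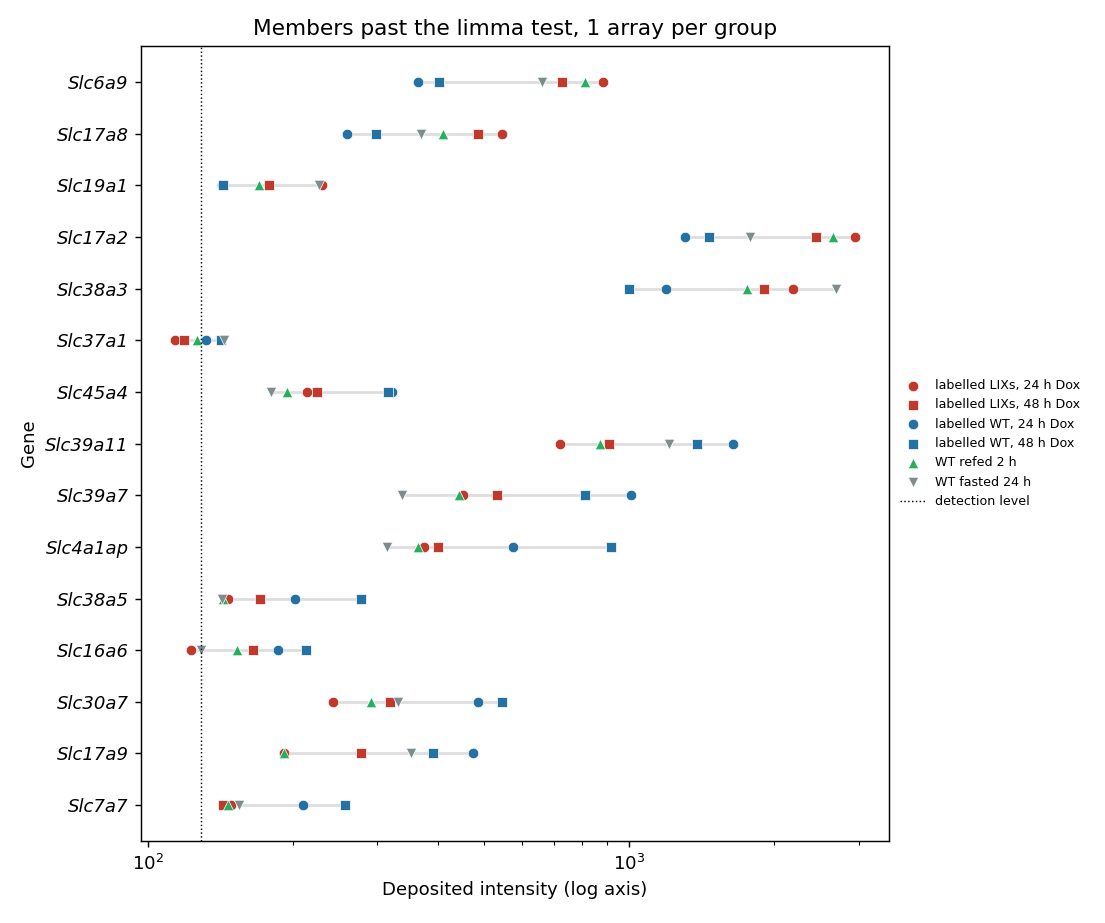
Deposited intensity (log axis) of the 15 members past the limma test, 1 point per array, with the detection level of 129 as a dotted line. The LIXs-labelled arrays (red) and WT on Dox (blue) do not overlap for any of these genes, which were chosen by a test on these same arrays. Of all genes tested, 29.0% lay above and 26.9% below without overlap. Slc37a1 and Slc16a6 reach below the detection level on some arrays.

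The fit pooled its error over all genes, with 1 residual degree of freedom, and the calls depended on it: 0 members passed without time on Dox as a block (45 had an unadjusted p under 0.05), with a more permissive detection level (59) or with no filter on dim probes (76), all by limma. Leaving out 1 array gave 0 members without the LIXs-labelled array at 24 h (15 with an unadjusted p under 0.05), 0 without that labelled LIXs at 48 h (27), 8 without WT at 24 h and 10 without WT at 48 h, by limma without the block.

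Without any test, both LIXs-labelled arrays lay above both WT Dox arrays for 58 of the 128 members (45.3%), where the background over all genes was 29%. They lay below for 33 (25.8%), against 26.9%. Intensities below are the deposited values and include background. The log2 differences were taken after background correction, so they exceed the ratio of the printed intensities where a probe is dim.

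Among the amino acid and neurotransmitter carriers, 28 were detected and 15 tested, of which 2 were higher and 2 lower. The shares of all genes tested were 4.2% higher and 4.39% lower. Slc6a9 takes glycine into cells with sodium and chloride. Its intensity was 885 and 364 on the LIXs-labelled and WT-labelled arrays at 24 h, 724 and 403 at 48 h, 812 refed and 660 fasted. Both LIXs-labelled arrays and both untreated WT arrays were above the WT Dox arrays. The averaged difference was 1.29 ± 0.23 on the log2 scale (SE of the fit to 4 arrays, limma adjusted p = 0.026), with 1.55 at 24 h and 1.03 at 48 h. Slc38a3, a sodium-coupled glutamine transporter of hepatocytes, read 2188 and 1195 at 24 h, 1911 and 999 at 48 h, 1760 refed and 2691 fasted. Its highest array was the fasted one. It rose by 0.97 ± 0.21 (limma adjusted p = 0.031), with nearly the same difference at 24 h (0.93) and 48 h (1.005).

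The amino acid carriers that fell were Slc7a7 and Slc38a5. Slc7a7 is the light chain of an exchanger that releases cationic amino acids from cells. It read 149 and 211 at 24 h, 143 and 256 at 48 h, 146 refed and 155 fasted. The WT Dox arrays were the high ones, and the other 4 lay together. Its averaged difference of -1.39 ± 0.23 (limma adjusted p = 0.023) came from a dim probe and was -0.67 without background correction. Slc38a5, which carries glutamine and serine, read 147 and 202 at 24 h, 171 and 277 at 48 h, 143 refed and 142 fasted. Again the WT Dox arrays stood above the rest. It fell by 1.13 ± 0.21 (limma adjusted p = 0.027), or by 0.58 without background correction.

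Of the other amino acid carriers tested, none passed. Slc38a2, a sodium-coupled carrier of small neutral amino acids, read 1662 and 1100 at 24 h, 1666 and 1141 at 48 h, 1598 refed and 914 fasted. The LIXs-labelled arrays and the refed array lay together above the WT Dox arrays, but its difference of 0.61 ± 0.21 did not pass (limma adjusted p = 0.090). Slc38a4 differed by 0.60 ± 0.21 (limma adjusted p = 0.095) and Slc1a2, a glutamate carrier, by 0.60 ± 0.21 (limma adjusted p = 0.096). The pair Slc6a12 and Slc6a13, which carry betaine and GABA, stood at 0.036 ± 0.22 and -0.24 ± 0.21. Of 11 amino acid transporters listed as known targets of ATF4, a transcription factor of the stress response, 5 were detected and 4 tested. Of these, 2 were higher, Slc6a9 and Slc38a3, and 0 lower, with a median of 0.79. Over all genes tested the median was 0.0084, with 4.2% called higher and 4.39% lower. The list was chosen with earlier results of these data known, and the 4 genes do not describe ATF4 targets as a set. Slc43a1 stood at 0.26 ± 0.21.

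Among the carriers of inorganic ions, phosphate and pH, a class by family number that also holds vesicular carriers, 24 were detected and 15 tested. Of these 2 rose and 1 fell, and 13 of 15 had a difference above 0, with a median of 0.51. The shares of all genes tested were 4.2% called higher, 4.39% called lower and 50.8% above 0. Slc17a2, a sodium-phosphate and organic anion carrier of liver and kidney, read 2944 and 1308 at 24 h, 2446 and 1467 at 48 h, 2660 refed and 1785 fasted. The WT Dox arrays were the lowest of the 6. It rose by 1.003 ± 0.22 (limma adjusted p = 0.031), and a second detected probe had differences of 1.10 at 24 h and 0.95 at 48 h without correction. Slc17a8, a vesicular glutamate carrier, read 544 and 260 at 24 h, 485 and 298 at 48 h, 411 refed and 369 fasted. It rose by 1.19 ± 0.22 (limma adjusted p = 0.027).

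Slc17a9, which loads ATP into vesicles and lysosomes, was lower. It read 191 and 475 at 24 h, 278 and 391 at 48 h, 192 refed and 352 fasted. The refed array lay at the level of the LIXs-labelled array at 24 h, and the fasted array lay near the WT Dox arrays. It fell by 1.32 ± 0.29 (limma adjusted p = 0.030), by 1.95 at 24 h and 0.69 at 48 h, and its second detected probe had the same sign at both times. Other members of the class that did not pass included Slc26a1, a sulfate carrier, at 0.64 ± 0.27, Slc17a3, a relative of Slc17a2, at 0.64 ± 0.22, and Slc12a3, a sodium-chloride carrier, at -0.32 ± 0.21.

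Among the metal carriers, 24 were detected and 19 tested, of which 0 were higher and 3 lower, all zinc transporters. The class median was -0.24, with 12 of 19 below 0. Of all genes tested, 49.2% were below 0, 4.2% were called higher and 4.39% lower. Slc30a7 moves zinc from the cytosol into the Golgi. It read 243 and 485 at 24 h, 319 and 545 at 48 h, 291 refed and 331 fasted. The WT Dox arrays were well above the other 4. It fell by 1.20 ± 0.22 (limma adjusted p = 0.026), and the second detected probe had differences of -0.70 at 24 h and -0.63 at 48 h without correction.

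Slc39a7, the ER zinc channel that releases zinc into the cytosol, read 451 and 1009 at 24 h, 532 and 809 at 48 h, 443 refed and 338 fasted. The fasted array was lowest, and the WT Dox arrays were highest. Its averaged difference was -1.03 ± 0.23 (limma adjusted p = 0.032). A second detected probe had -0.89 at 24 h but -0.030 at 48 h without correction, where the used probe had -1.16 and -0.60. Slc39a11, a zinc importer, read 720 and 1648 at 24 h, 909 and 1387 at 48 h, 869 refed and 1209 fasted. It fell by 0.99 ± 0.23 (limma adjusted p = 0.034), and its fasted array lay between the groups.

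**Figure D2:**
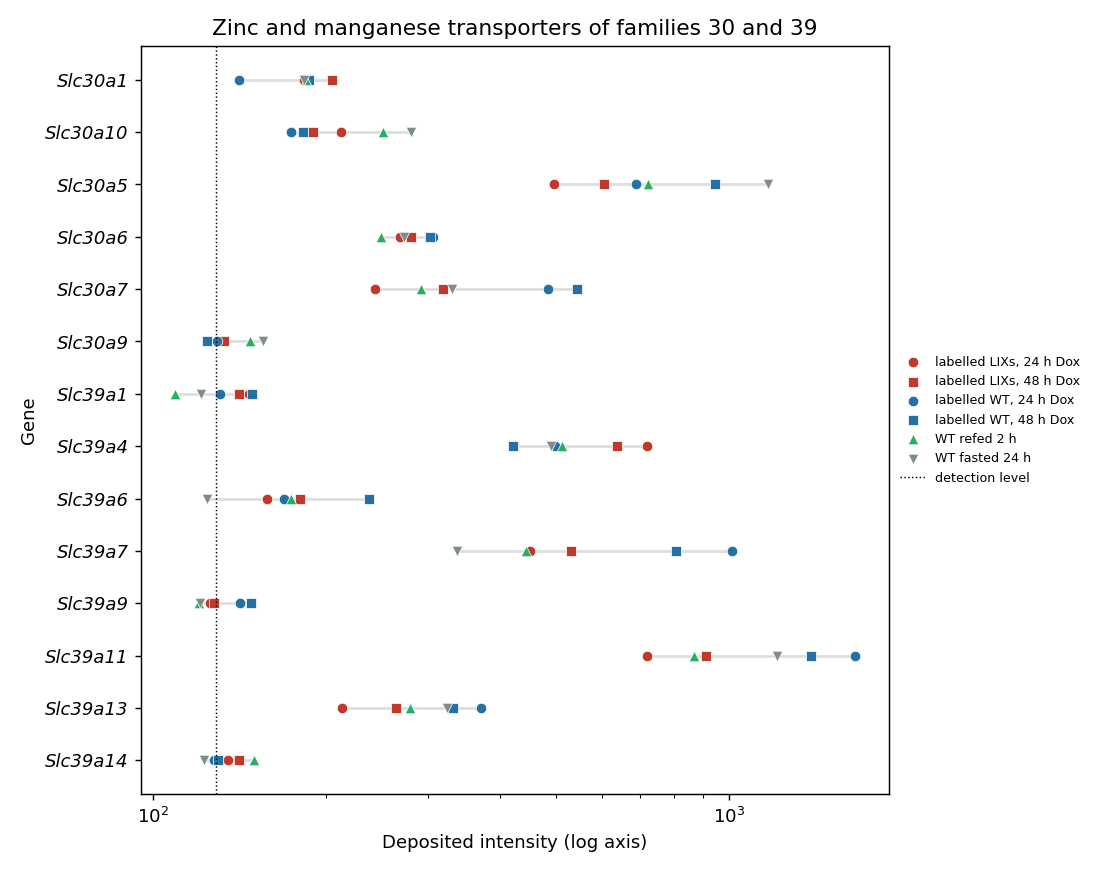
Deposited intensity (log axis) of chosen tested members of families 30 and 39, 1 point per array, with the detection level of 129 as a dotted line. Slc30a3, tested and at 0.43 ± 0.22, is not drawn, and neither are members too dim to be tested, such as Slc30a4. Slc30a7, Slc39a7 and Slc39a11 show both LIXs-labelled arrays left of both WT Dox arrays, while Slc39a4 shows them on the right.

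The other metal carriers did not pass the test. Slc39a13, a zinc transporter of the ER and Golgi region, read 213 and 370 at 24 h, 265 and 332 at 48 h, 280 refed and 324 fasted, and differed by -0.84 ± 0.24 (limma adjusted p = 0.053). Slc30a5, a Golgi zinc importer, read 497 and 689 at 24 h, 606 and 944 at 48 h, 723 refed and 1168 fasted, and differed by -0.64 ± 0.21 (limma adjusted p = 0.079). The groups on Dox did not overlap for either gene. Slc30a6, which pairs with Slc30a5, stood at -0.22 ± 0.21. Slc11a2, the proton-coupled iron importer, differed by -0.88 ± 0.26 (limma adjusted p = 0.061), with -1.39 at 24 h and -0.37 at 48 h. Among plasma membrane zinc transporters, Slc39a4, an importer, stood at 0.68 ± 0.21, Slc30a1, an exporter, at 0.57 ± 0.23 and Slc39a6, an importer, at -0.48 ± 0.22, none past the test. Slc31a1, the copper importer, stood at -0.24 ± 0.23.

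The nucleotide sugar carriers of the Golgi and ER whose symbols fit the rule were few, 5 detected and 4 tested, and 0 passed. Slc35a2 brings UDP-galactose into the Golgi. It read 206 and 345 at 24 h, 219 and 251 at 48 h, 226 refed and 230 fasted, with a difference of -0.74 ± 0.25 (limma adjusted p = 0.080) that was -1.15 at 24 h and -0.33 at 48 h. Slc35a4 stood at -0.69 ± 0.21 (limma adjusted p = 0.065). A wider list of 25 carriers located in the ER and Golgi had 23 detected and 19 tested. It was drawn mainly from the zinc and nucleotide sugar families, with Slc37a3, Slc10a7, Slc9a7 and Slc9a8 from others and with Slc35 carriers outside the rule. Of these 0 were higher and 4 lower, with a median of -0.64 and 16 of 19 below 0. Over all genes tested the median was 0.0084, with 49.2% below 0 and 4.39% called lower. Slc10a7 and Slc39a9 were tested only through the WT-labelled arrays, and without them 14 of 17 were below 0 with the same median of -0.64. The 4 were Slc30a7, Slc39a7 and, outside the rule, Slc35c1, the GDP-fucose carrier, at -1.12 ± 0.22 (limma adjusted p = 0.029) and Slc35e1 at -1.27 ± 0.22 (limma adjusted p = 0.025). In the lysosome and endosome list, 12 were detected and 9 tested, 0 passed, and the median was -0.068. Both lists were chosen with earlier results of these data known. Their counts describe the listed genes and do not test a location in the cell.

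**Figure D3:**
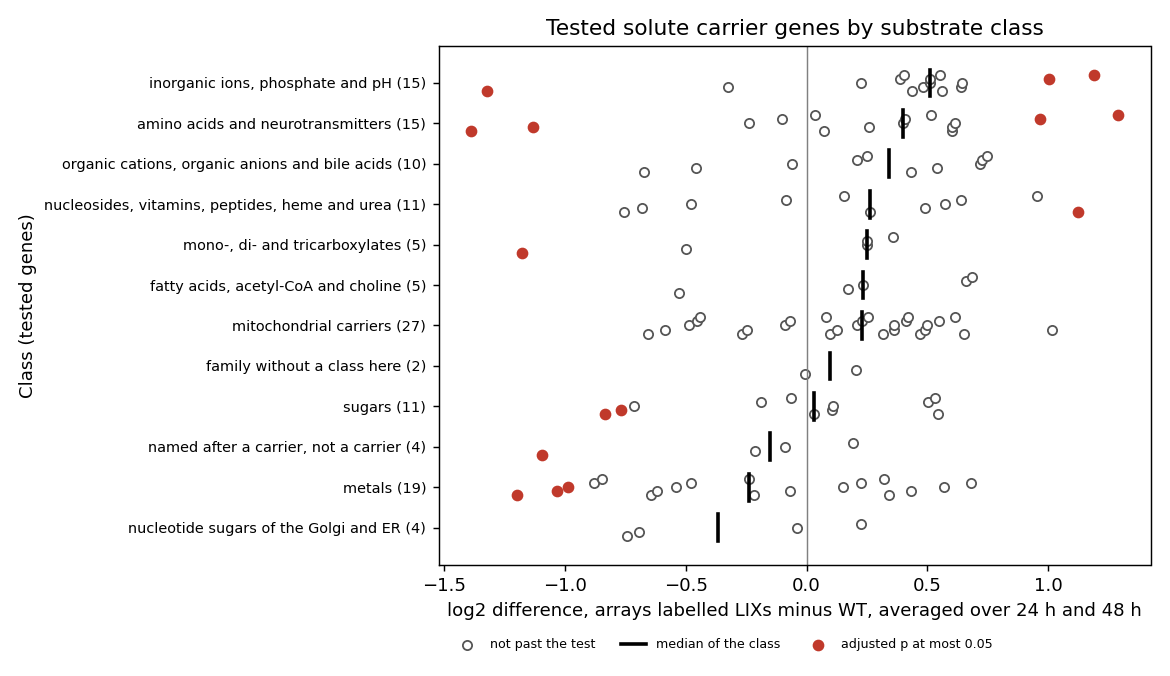
Averaged log2 difference (LIXs-labelled arrays minus WT, 24 h and 48 h of Dox) of the 128 tested members by substrate class, with the number tested in brackets and a bar at each class median. The medians run from 0.51 for inorganic ions to -0.37 for nucleotide sugars, and filled points mark the 15 members past the limma test.

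Among carriers of nucleosides, vitamins, peptides, heme and urea, 13 were detected, 11 tested and 1 passed (9.09%, against 8.59% of all genes tested). Slc19a1, the reduced folate carrier, read 230 and 142 at 24 h, 178 and 143 at 48 h, 170 refed and 227 fasted. The WT Dox arrays were the lowest of the 6. It rose by 1.12 ± 0.24 (limma adjusted p = 0.030), or by 0.51 without background correction. Slc15a4, a lysosomal peptide and histidine carrier, stood at 0.95 ± 0.30 (limma adjusted p = 0.069). Its LIXs-labelled arrays read 347 and 347, and the WT Dox arrays read 174 at 24 h and 305 at 48 h. Slc29a1, a nucleoside transporter, stood at 0.57 ± 0.21 and Slc46a3 at -0.48 ± 0.21, neither past the test.

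Among carriers of mono-, di- and tricarboxylates, 7 were detected, 5 tested and 1 passed (20%, against 8.59% of all genes tested). Slc16a6, which exports ketone bodies from hepatocytes in zebrafish, read 123 and 186 at 24 h, 165 and 213 at 48 h, 153 refed and 129 fasted. The LIXs-labelled array at 24 h and the fasted array were below the detection level, so the 24 h difference is given as at least 2.58-fold. Its averaged difference was -1.17 ± 0.25 (limma adjusted p = 0.030) and was -0.48 without background correction. Its other detected probe differed by -0.039 at 24 h and -0.27 at 48 h without correction, where the used probe differed by -0.60 and -0.37.

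Among the sugar carriers, 16 were detected and 11 tested, with 0 higher and 2 lower, both from dim probes. The shares of all genes tested were 4.2% higher and 4.39% lower. Slc45a4, of a family that carries sugars with protons, read 214 and 321 at 24 h, 225 and 316 at 48 h, 195 refed and 181 fasted. It fell by 0.83 ± 0.21 (limma adjusted p = 0.039), or by 0.54 without background correction. Of its 2 other detected probes, 1 had the opposite sign, at 0.069 and 0.13. Slc37a1, a sugar phosphate exchanger, read 114 and 132 at 24 h, 119 and 142 at 48 h, 126 refed and 144 fasted, above the detection level on 3 arrays. Both LIXs-labelled arrays were below that level, so it was at least 1.21-fold lower on them (limma adjusted p = 0.0499). Without background correction it did not pass (limma adjusted p = 0.242). Slc2a1, the glucose carrier of most cells, stood at -0.71 ± 0.23 (limma adjusted p = 0.073).

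Mitochondrial carriers were the largest class, 30 detected and 27 tested, and 0 passed limma's adjusted test. The class median was 0.23, with 18 above 0 (66.7%, against 50.8% of all genes tested). Slc25a25, which exchanges ATP-magnesium for phosphate, read 660 and 271 at 24 h, 415 and 345 at 48 h, 262 refed and 175 fasted. The LIXs-labelled array at 24 h was the highest and the fasted array the lowest. Its averaged difference of 1.01 ± 0.29 (limma adjusted p = 0.055) was 1.67 at 24 h and 0.36 at 48 h. Slc25a15, the ornithine carrier of the urea cycle, read 1091 and 950 at 24 h, 1254 and 642 at 48 h, 2289 refed and 1848 fasted. All Dox arrays were below the refed and fasted arrays, and the difference was 0.65 ± 0.25 (limma adjusted p = 0.117). Slc25a28, an iron carrier, stood at -0.66 ± 0.22 and Slc25a10, the dicarboxylate carrier, at -0.58 ± 0.22, neither past the test. Slc25a5, an ADP/ATP carrier, stood at -0.25 ± 0.21. In the list of carriers for the urea cycle, gluconeogenesis and ketone metabolism, 11 were detected and 10 tested, 0 passed, and the median was 0.24.

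Carriers of organic cations, organic anions and bile acids had 14 detected and 10 tested, carriers of fatty acids, acetyl-CoA and choline 7 and 5, and 0 passed in either. Slc47a1, the proton-coupled exporter of organic cations into bile, read 3534 and 2422 at 24 h, 3463 and 1918 at 48 h, 4350 refed and 5170 fasted. The groups on Dox did not overlap, and the difference was 0.72 ± 0.22 (limma adjusted p = 0.062). Slc27a2, a fatty acid carrier and very long chain acyl-CoA synthetase, read 10148 and 6122 at 24 h, 10162 and 6828 at 48 h, 10228 refed and 7306 fasted. The LIXs-labelled arrays and the refed array lay together, and the difference was 0.66 ± 0.21 (limma adjusted p = 0.074). A list of hepatocyte transporters was mostly for uptake and efflux, with the mitochondrial Slc25a47 and the vesicular Slc17a8 among them. Not all were bright, with Slc39a14 at 123 to 150 and Slc51b at 128 to 140. In that list, 20 were detected and 19 tested. Of these, 2 were higher, Slc17a2 and Slc17a8, and 0 lower, with a median of 0.41 and 16 of 19 above 0. Over all genes tested, 50.8% were above 0 and 4.2% were called higher. This list too was chosen with earlier results of these data known, so its counts only describe it.

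Among the genes named after a carrier, 4 were tested and 1 passed. Slc4a1ap encodes kanadaptin, an adaptor named for binding the anion exchanger Slc4a1. It read 375 and 575 at 24 h, 401 and 915 at 48 h, 365 refed and 314 fasted, with the WT Dox arrays above the other 4. It fell by 1.09 ± 0.23 (limma adjusted p = 0.030). A list of transporters and partner proteins outside the rule had 22 detected and 17 tested. Of these 2 were higher, Mfsd1 at 0.97 ± 0.21 (limma adjusted p = 0.031) and Pdzk1, a scaffold for transporters at the plasma membrane, at 0.997 ± 0.21 (limma adjusted p = 0.030). The heme exporter Flvcr1 was lower, at -0.78 ± 0.22 (limma adjusted p = 0.049). Over all genes tested, 4.2% were called higher and 4.39% lower.

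The refed WT array, which has no Dox in its labels, was closer to the mean of the LIXs-labelled arrays than to that of the WT Dox arrays for 14 of the 15 members past the test (93.3%), against 536 of all 661 genes called (81.1%). Of the 10 that fell, 9 lay on that side (90.0%), against 94.1% of the genes called lower. The 5 members that rose all lay on that side, against 67.5% of the genes called higher. The fasted array was closer to the LIXs-labelled arrays for 10 of 15 (66.7%), against 54.2%. The 3 WT states were not alike in Dox, fasting time and refeeding, which cannot be told apart.

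Each time point has 1 array per genotype label and no test. At 24 h, 139 members were detected on at least 1 of the LIXs-labelled and WT-labelled arrays, and 19 (13.7%) differed at least 2-fold on the background-corrected scale, 7 higher and 12 lower. The background was 8.55%, with 3.68% higher and 4.87% lower. Of the 19 members, 3 were below the detection level on the dimmer array, Slc16a6 with a bound of at least 2.58-fold and Slc35a5 and Slc2a10 with bounds of only 1.27-fold and 1.29-fold. Among those measured on both arrays, Slc25a25 and Slc15a4 headed the higher genes at 1.67 and 1.65, and Slc17a9, Slc11a2, Slc30a7, Slc39a7, Slc39a11, Slc39a13 and Slc35a2 the lower ones at -1.95 to -1.15. At 48 h, 133 were counted and 11 (8.27%) differed at least 2-fold, 5 higher and 6 lower, against a background of 3.99%, with 1.55% higher and 2.43% lower. The higher genes there were Slc26a1 at 1.20, Slc25a15 at 1.08, Slc46a1, the proton-coupled folate carrier, at 1.06, Slc6a9 and Slc38a3. The lower genes were Slc7a7 at -1.70, Slc4a1ap at -1.42, Slc52a3, a riboflavin carrier, at -1.32, Slc38a5 at -1.24, Slc2a1 at -1.01 and Slc30a7 at -1.002. Summed acinar marker intensities at 48 h were 4148 under the LIXs label and 3631 under the WT label.

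**Figure D4:**
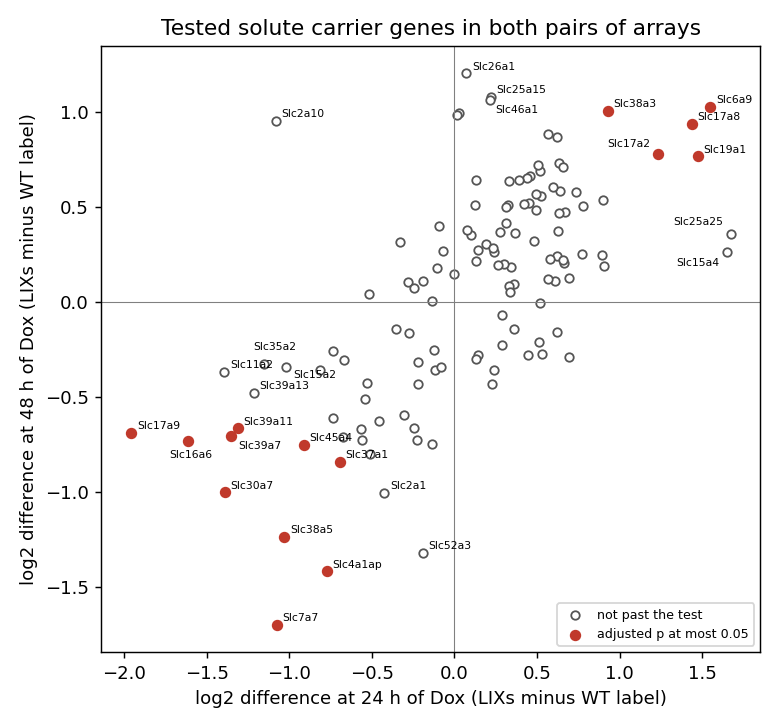
Log2 difference between the LIXs-labelled and WT-labelled arrays at 24 h (x axis) and at 48 h (y axis) for the 128 tested members. Genes are named where they passed the limma test or differed by at least 1 at either time. All are fitted values, taken against arrays below the detection level for Slc2a10 and Slc37a1 at both times and for Slc16a6 at 24 h. Most points, 104 of 128, lie in the quadrants of equal sign, while Slc25a25, Slc15a4 and Slc11a2 differ mainly at 24 h and Slc26a1 and Slc52a3 mainly at 48 h.

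Several of these differences lay in 1 array. From 24 h to 48 h on the WT Dox arrays, 4 of 136 members (2.94%) differed at least 2-fold, 3 higher and 1 lower, against a background of 3.72%, with 2.41% higher and 1.32% lower. The higher genes were Slc15a4 at 1.38, Slc52a3 at 1.38 and Slc2a1 at 1.06. Slc52a3 read 231 on the WT array at 48 h and 139 to 198 on the other 5, and Slc2a1 read 649 there and 292 to 370 elsewhere. Slc15a4 read 174 on the WT array at 24 h and 305 to 428 elsewhere. Between the LIXs-labelled arrays, 3 of 133 (2.26%) differed at least 2-fold, 1 higher and 2 lower, against 1.34%, with 0.52% higher and 0.818% lower, and each was below the detection level on its dimmer array.

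The WT array refed for 2 h and the WT array fasted for 24 h gave the nutritional comparison, again without a test. Of 153 members detected on at least 1 of them, 18 were at least 2-fold higher on the refed array and 19 lower, together 24.2% against a background of 24%, with 12.2% higher and 11.8% lower. The share was near the background. Of these 37 members, 27 were below the detection level on the dimmer array, and 10 of those had a bound of at least 2-fold, so 20 members reached 2-fold by measurement or by bound. The median difference was -0.046, against -0.089 over all genes.

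The members described next were chosen from those with wide differences on the refed side. Slc25a25 at 1.03 and Slc45a3 at 0.99 stood above Slc38a2 but are not described here. Slc22a5, the sodium-coupled carnitine importer, read 681 refed and 333 fasted, with the Dox arrays between 249 and 342. The refed array stood alone, at a log2 difference of 1.29. Slc38a4 and Slc38a2, both importers of neutral amino acids, were at 1.16 and 0.87. The amino acid class as a whole had 3 members at least 2-fold higher and 3 lower, with a median of -0.21, and Slc38a7, a lysosomal glutamine exporter, at -1.35 and Slc7a13 at -1.21 were higher on the fasted array. Slc38a4 read 317 refed and 193 fasted, and its Dox arrays, at 279 to 384, spanned the refed value. Slc16a5, a monocarboxylate carrier, read 341 refed and 115 fasted, below the detection level, so it was at least 6.82-fold higher refed, and its Dox arrays read 192 to 221. Slc66a1, a lysosomal exporter of cationic amino acids, was at least 2.42-fold higher refed.

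Genes higher on the fasted array included 3 mitochondrial carriers measured on both arrays. Slc25a45 read 1066 fasted and 504 refed, Slc25a39, needed for mitochondrial glutathione import, 1680 and 834, and Slc25a44, a branched-chain amino acid carrier, 1237 and 649. The Dox arrays read 334 to 502, 640 to 953 and 614 to 884, so the fasted array was above all others for each gene. Their differences, refed minus fasted, were -1.24, -1.10 and -1.04. Of the 29 mitochondrial carriers counted, 4 were at least 2-fold higher on the fasted array and 1 on the refed array, Slc25a25 at 1.03. The class median was -0.076, against -0.089 over all genes. Slc20a1, a phosphate importer, was at -1.51, with 229 fasted and 141 refed. Slc25a36, a pyrimidine nucleotide carrier, read 265 fasted and below the detection level on the other 5 arrays, at least 4.75-fold above the refed array. Slc27a3 read 217 fasted and 107 refed, at least 3.44-fold apart.

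**Figure D5:**
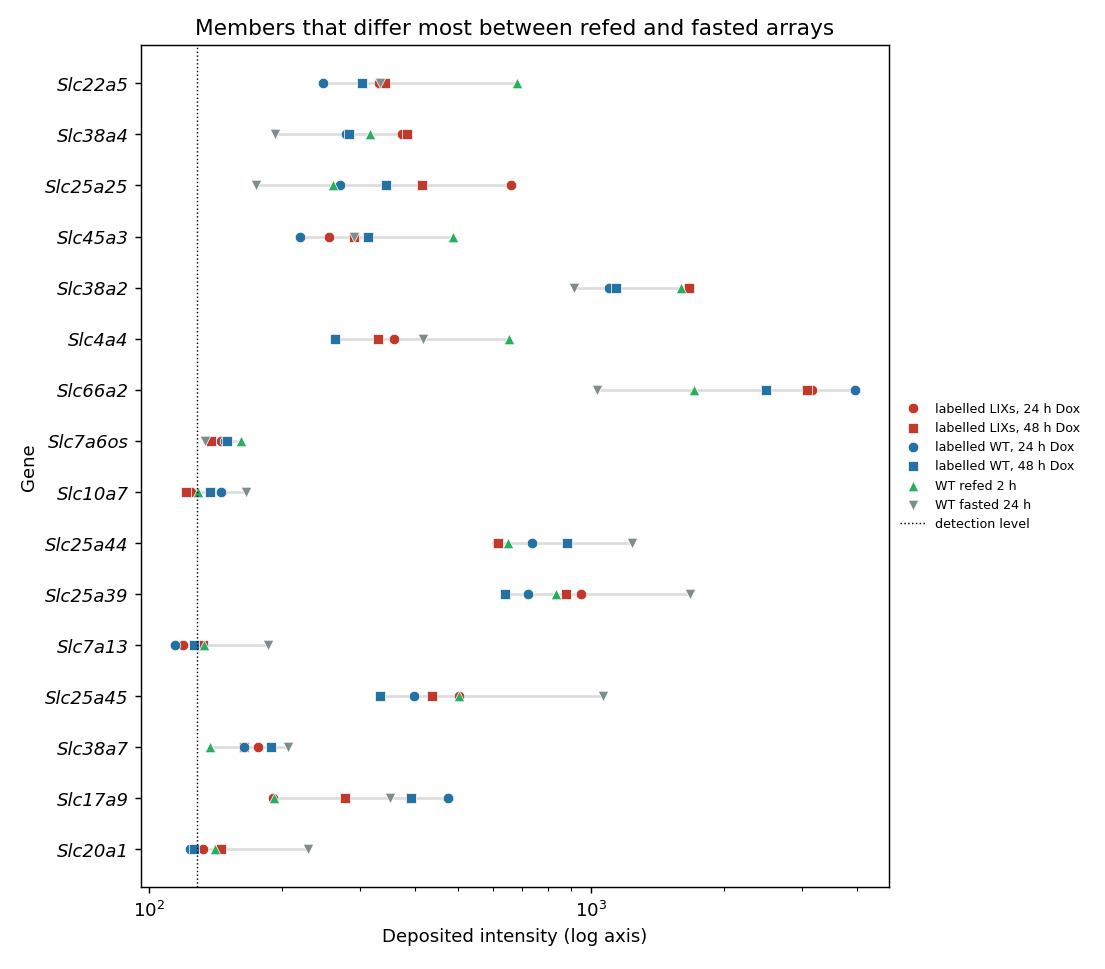
Deposited intensity (log axis) of the 16 members with the widest refed to fasted differences among those detected on both arrays, 1 point per array, with the detection level as a dotted line. Slc25a45, Slc25a39 and Slc25a44 have the fasted array far to the right of the other 5, and Slc22a5 has the refed array there.

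Over the 94 members detected on all arrays, the fasted array was the highest of the 6 for 26 (27.7%) and the lowest for 14 (14.9%), against 33.3% and 26.9% of the 5825 genes detected on all arrays. The WT Dox arrays were the lowest for 25 members at 24 h (26.6%) and 27 at 48 h (28.7%), against 17.8% and 18.0%. The LIXs-labelled arrays were the lowest for 19 at 24 h (20.2%) and 3 at 48 h (3.19%), against 20.7% and 4.82%. These shares describe 6 arrays and were not tested.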

How the data were processed

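Pooled liver RNA was measured on 6 arrays. The authors deposited linear intensities for 45281 probes, from 81.1 to 50652, per the deposited value table. Per the submitters' processing notes GenomeStudio was used, and no source used here names the normalization method. The arrays' sorted log2 values lay within 0.0199 of each other, so the deposited intensities were taken as already normalized between arrays. A table with 6 unnormalized signal columns was left out, since no column name there matches a sample. Control probes and detection p-values, which the design assumed, were replaced as follows.

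The background was the mode of all intensities, 109, and its SD, 7.58, came from mirroring the lower values about that mode. The detection level of 129 leaves 0.01 of the mirrored background above it. With these parameters limma 3.58.1 (R 4.3.3) applied normexp, an offset of 16, quantile normalization and log2. Of the probes, 34885 had 1 gene symbol, 18 several and 10378 none, and 34807 named probes matched the reference table. The brightest probe stood for a gene. No probe's level was set against another's.

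limma's lmFit and eBayes compared LIXs with WT on the 4 Dox arrays, blocked by time on Dox, and p-values were adjusted over 7698 genes (Benjamini-Hochberg, threshold 0.05). The prior added 9.73 degrees of freedom with an SD of 0.222, so errors are mostly those of all genes together. On data simulated for this comparison (5 runs, 7698 genes, 100 changed per size, equal at both times), the test recovered 65.8% of the 2-fold changes and 100% of the 4-fold ones, and 9.15% of its calls were false. The simulated errors came from limma's own fitted prior, so these shares describe the test under its model and not the calls made here. With 1 array per group, the residual of the fit is the gap between the differences at 24 h and 48 h, drawn toward the prior. The p-values therefore measure no spread between replicate arrays or between animals, and the number of arrays limits the precision. Pairs of arrays had no test and were counted at 2-fold. Where the dim array was below the detection level, a fold is given as at least the ratio of the bright signal to the larger of 2 values, the lowest signal among detected probes and the gene's own dim signal.

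The genes named were the members past the test, the ends of each pair comparison and examples from the lists. The members, the lists of transporters and the cell type markers were chosen with earlier results of these data known. Alternatives changed the background correction, offset, quantile step, detection level, filter, choice of probe, time block, prior and arrays.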

Additional observations from a re-analysis of the deposited data

Results flagged for a closer look

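Slc35a5 and Slc2a10 had fitted differences of opposite sign at 24 h and 48 h, and in each comparison at least 1 of the arrays was below the detection level. The difference between the times was not tested. Slc35a5, of the nucleotide sugar carrier family, had 1.02 at 24 h and -0.090 at 48 h on the log2 scale after background correction. Its LIXs-labelled array at 24 h alone was above the detection level, which bounds that difference at 1.27-fold or more and gives none at 48 h. Slc2a10, of the glucose carrier family, had -1.08 at 24 h and 0.95 at 48 h, and read 109 (LIXs label) against 139 (WT label) at 24 h, then 136 against 110 at 48 h. Its bounds were at least 1.29-fold lower and at least 1.19-fold higher.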

How the results depend on the processing

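With 1 array per group, no direction of a member past the test was reversed in any of the 13 settings in which it was tested, but the count of such members changed from 15 to 37 with a trend in limma's prior, 47 without background correction, 37 with an offset of 50, and 0 with the more permissive detection level, with no filter on dim probes and without the time block. It was 15 with the mean of all detected probes, 14 without the quantile step and 17 at the stricter level. Leaving out 1 array gave 0 to 10. That step could not reverse a direction among the 15, since their LIXs-labelled and WT Dox arrays did not overlap. The other settings used the same arrays and add no independent evidence on direction. The counts at 2-fold changed without background correction to 9 at 24 h, 1 at 48 h and 6 for refed against fasted, and with an offset of 50 to 12, 4 and 8. Both alternatives shrink the differences of dim probes by their construction. The cause of the other changes was not tested. Over all genes, 1677 were called without background correction, 1431 with the trend and 1283 with an offset of 50, against 661.

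Sign changes were limited to members not past the test. With the mean of all detected probes, Slc66a2 was at 0.049 and Slc20a1 at -0.23. Leaving out 1 array in turn gave -0.17 to 0.25 for Slc6a12, -0.35 to 0.33 for Slc66a2, -0.043 to 0.45 for Slc66a1, -0.26 to 0.084 for Slc9a3r1, -0.29 to 0.51 for Slc45a3, -0.12 to 0.59 for Slc44a3 and -0.59 to 0.42 for Slc2a10. No paired analysis was possible because, as far as replicate numbers go, each group has 1 array and the number only names it. The pairing used was by time on Dox, the block without which 0 members passed.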
